A study of Mus musculus with 6 samples.

Results

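The genes described here encode the enzymes that break down glucose to lactate (glycolysis), the pentose phosphate pathway that branches from it, and the enzymes that build and break down glycogen. They were taken as a list of 34 gene symbols and looked up as rows of the deposited expression tables. Of these, 33 had a row among 17342 named genes, which made 20 of glycolysis, 6 of the pentose phosphate pathway and 7 of glycogen. No row matched the symbol Pkm, which encodes the pyruvate kinase of most tissues, so the last energy-yielding step of glycolysis was not analysed here. Members were matched by the listed symbol only, so a row under an older symbol would be missed. A further member, Aldoc, the brain-type aldolase, stayed between 0.139 and 0.412 FPKM in all libraries and was under the minimum for testing, which left 32 members.

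The libraries were made from RNA of the inguinal white fat, which lies under the skin, of C57BL/6 mice aged 8 weeks, all of them stimulated by cold. The groups were WT (replicates 1 to 3) and Rarres2-/- (replicates 4 to 6), the latter deficient in Rarres2, which encodes the adipokine and chemoattractant chemerin. The sources used here give neither the temperature and length of the cold nor the deleted region or the sex of the mice. The labels do not say that the 3 libraries of a group came from separate mice, so p-values measure only the spread between these samples.

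Glycolysis splits glucose into pyruvate, and in fat the pathway also supplies the glycerol backbone on which triglycerides are built. The oxidative branch of the pentose phosphate pathway makes the NADPH that fatty acid synthesis uses, and its non-oxidative branch returns sugars to glycolysis. Fat cells hold a small glycogen store, which turns over with feeding and with thermogenic stimulation. Several steps have isoforms typed by tissue, such as Pfkm and Pygm, the phosphofructokinase and glycogen phosphorylase of skeletal muscle.

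The targeted gene followed the labels. Rarres2 was at 436, 610 and 505 FPKM in WT replicates 1 to 3 and at 0.260, 6.35 and 1.41 in Rarres2-/- replicates 4 to 6. FPKM counts fragments per length of transcript and per library total, so levels can be set beside each other between genes, but the depth of each library is unknown and no counting error can be given. A pair of libraries stood apart from their groups. WT replicate 1 had the highest summed level of 15 skeletal muscle markers, 2101 FPKM against 315 to 771 in the other libraries. The small nucleolar RNA gene Snord2 made up 62.1% of its summed FPKM, a total of 1884822 against 500311 to 809109 elsewhere. Its median tested gene, at 9.05 FPKM, was like that of the others (9.05 to 9.37). Rarres2-/- replicate 4 had the lowest summed level of 8 adipocyte markers, 41560 FPKM against 61073 to 79566 elsewhere, a sum carried by Fabp4 and Cfd. Its Plin1 (844 FPKM) and Cidec (1786) were above every WT library (526 to 602 and 1564 to 1617). This held in Rarres2-/- replicates 5 and 6 too. Cfd was below every WT library in all Rarres2-/- libraries, at 10472 to 12332 FPKM against 13424 to 25747. Adipoq, Fabp4, Lpl and Retn were below every WT library in replicate 4 and above every one in replicates 5 and 6. Retn, for example, was at 3539 to 4400 FPKM in WT and at 1627, 5266 and 5985 in Rarres2-/- replicates 4 to 6. So the adipocyte markers did not move as one. Endothelial markers were high in both, at 189 FPKM in WT replicate 1 and 126 in Rarres2-/- replicate 4 against 25.6 to 32.9 in the others. Other libraries differed too. The 8 lymphocyte markers summed to 51.9 FPKM in WT replicate 3 and 24.3 in Rarres2-/- replicate 6, against 5.85 to 11.5 elsewhere. Brown and beige fat markers summed to 1229 to 1322 FPKM in WT and to 709, 1221 and 1673 in Rarres2-/- replicates 4 to 6, and the low value was carried by Cox8b (454 FPKM against 1010 to 1419). Ucp1, at 43.1 to 56.1 FPKM in WT and 61.5 to 74.6 in Rarres2-/-, and Dio2, at 1.72 to 1.90 and 2.08 to 4.60, were higher in Rarres2-/- without overlap. Cidea, Ppargc1a, Cox8b and Elovl3 overlapped, with log2 differences of -0.03, 0.32, -0.28 and 0.18. The adjusted limma p was 0.999 for each marker of this list. Of all genes tested, 5.81% were higher and 4.53% lower in Rarres2-/- without overlap. All 8 macrophage markers had a lower mean log2 level in Rarres2-/-, with sums of 259, 959 and 973 in WT replicates 1 to 3 and 456 to 603 in Rarres2-/-. Their median log2 difference was -0.22, or -0.85 without WT replicate 1. Fibroblast markers behaved alike, with 5 of 6 lower and a median of -0.35, or -0.94 without WT replicate 1. In bulk tissue, fewer cells of a type and less RNA per cell cannot be told apart. The lists are also given without Rarres2-/- replicate 4. Eno1, G6pdx and Gbe1 are given without WT replicate 1 and without Rarres2-/- replicate 4.

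No member differed between the genotypes past the threshold, which the targeted gene itself also missed, with a log2 difference of -7.51 and an adjusted limma p of 0.0597. Among all 11086 genes tested with limma on log2(FPKM + 1), 0 genes had a Benjamini-Hochberg adjusted p under 0.05 (0.0%), and so had 0 of the 32 members, whose adjusted p was 0.999 throughout. At an unadjusted limma p under 0.05 there were 436 genes (3.93%) and 0 members. The signs were unequal: 23 of 32 members had a positive log2 difference, Rarres2-/- minus WT, which is 71.9%, against 48.6% of all genes tested. Split by pathway, 13 of 19 glycolysis members, 4 of 6 pentose phosphate members and 6 of 7 glycogen members were on the positive side. Their median log2 differences were 0.09, 0.18 and 0.16, against -0.01 over all genes tested, and differences between the 3 lists were not tested. What the group means hide is a wide split among the Rarres2-/- libraries, in which replicates 5 and 6 were often above every WT library and replicate 4 below every one.

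**Figure D1:**
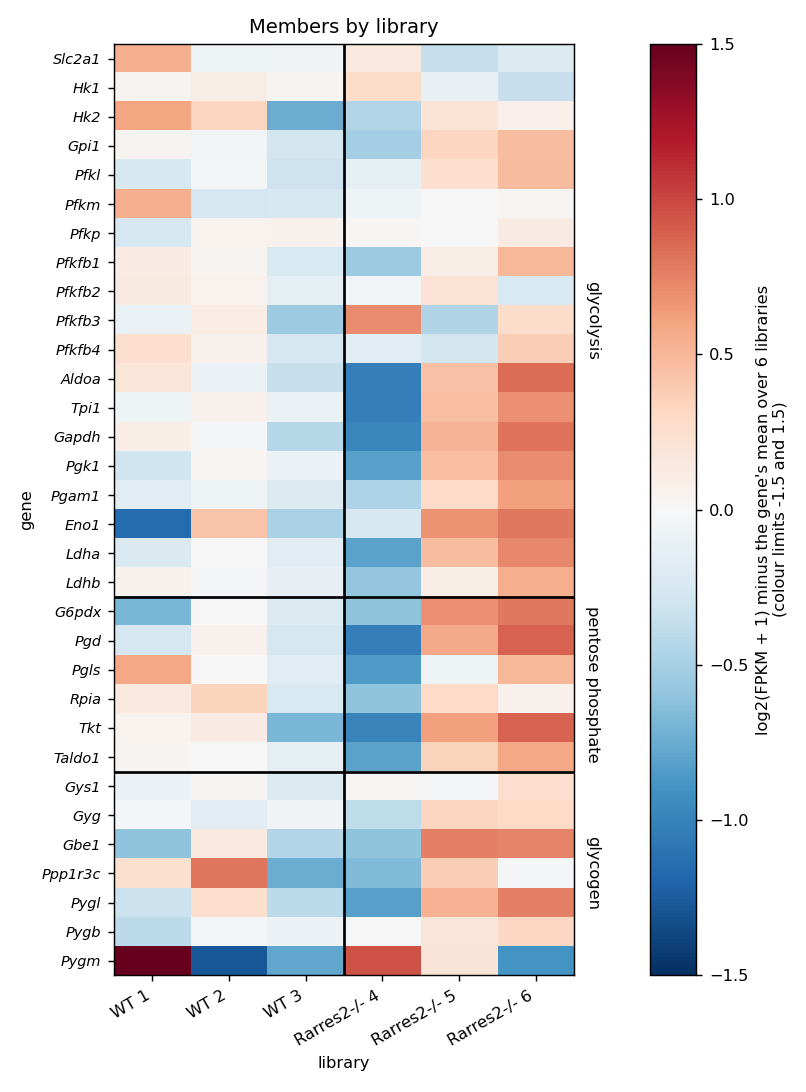
Heat map of the 32 tested members (rows, grouped by pathway) in the 6 libraries (columns). Colour gives log2(FPKM + 1) minus the gene's mean over the libraries, with limits of -1.5 and 1.5; the columns of Rarres2-/- replicates 4 and 6 have opposite colours over lower glycolysis and the pentose phosphate pathway.

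Among the members, the split ran along the lower part of glycolysis and the pentose phosphate pathway. The adipocyte markers Adipoq, Fabp4, Lpl and Retn had the same split. Rarres2-/- replicate 4 was the lowest of the 6 libraries in 17 of 32 members (53.1%, against 28.5% of all genes tested), and Rarres2-/- replicate 6 was the highest in 20 (62.5%, against 19.4%). Both held for 13 members (40.6%, against 11.9%). Abundant genes as a class behaved similarly: among the 834 genes that averaged 100 FPKM or more, replicate 4 was lowest in 63.8% and replicate 6 highest in 49.9%. Of the 14 members that abundant, replicate 4 was lowest in 12 (85.7%) and replicate 6 highest in 12. Their median deviation from the gene's mean in replicate 4 was -0.82 on the log2 scale, against -0.44 for all 834 abundant genes. In that library the deviation of abundant genes also moved with transcript length, with a median of -0.52 for 451 genes under 2000 bases, -0.30 for 272 genes of 2000 to under 4000 bases and -0.12 for 79 longer genes. Length is that of a gene's longest GENCODE transcript, and genes not matched there were left out. In WT replicate 1 the medians ran the other way, at 0.10, -0.12 and -0.20. The part of transcript length, and of the low levels of Fabp4 and other adipocyte markers in the same library, in the members' values was not tested.

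Glucose entry and the upper steps showed small and mixed differences. Hk2, the insulin-responsive hexokinase that traps glucose in the cell, had 86.1, 71.4 and 33.5 FPKM in WT and 41.9, 65.7 and 60.1 in Rarres2-/-. The groups overlapped fully, with means of 63.7 ± 27.2 and 55.9 ± 12.5 (SD, n = 3 each). Hk2 made up 79.3% to 88.9% of the summed FPKM of the 4 hexokinase genes in every library, and Hk1, the housekeeping form, was at 4.37 to 7.28 FPKM. The ubiquitous glucose transporter Slc2a1 was low, at 7.88, 4.86 and 4.95 FPKM in WT and 5.81, 3.82 and 4.35 in Rarres2-/-. Slc2a4, the insulin-responsive transporter of fat and muscle, was far higher in each library, at 158, 130 and 84.8 in WT and 103, 151 and 169 in Rarres2-/-. Gpi1, which converts glucose phosphate to fructose phosphate, stood at 160, 152 and 129 FPKM in WT and 110, 194 and 215 in Rarres2-/-, so that the Rarres2-/- values lay on both sides of the WT range.

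Phosphofructokinase commits sugar to glycolysis, and the liver-type gene Pfkl was its main transcript in the depot. Pfkl measured 47.3, 54.9 and 45.1 FPKM in WT and 50.3, 66.7 and 78.7 in Rarres2-/-, a log2 difference of 0.39 (SE 0.204) with an exact permutation p of 0.2. It held 55.1% to 69.8% of the summed FPKM of the 3 phosphofructokinase genes. Pfkp, the platelet type, varied little, from 12.2 to 16.1 FPKM. Its transcripts share 748 bases with Pitrm1, whose level was 9.57 to 15.8 FPKM, and the sources used here do not say how shared reads were counted.

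The bifunctional PFKFB enzymes make and remove the sugar bisphosphate that activates phosphofructokinase. Pfkfb3, the form with the strongest kinase activity, had 98.2, 114 and 72.5 FPKM in WT and 173, 76.8 and 129 in Rarres2-/-. It ran against most members in being highest in Rarres2-/- replicate 4, and its log2 difference of 0.36 (SE 0.329) became 0.09 without that library. Pfkfb3 held 63.5% to 85.1% of the summed FPKM of the 4 PFKFB genes. Pfkfb1 ranged from 22.7 to 47.9 FPKM, lowest in replicate 4 and highest in replicate 6, while Pfkfb2 (2.39 to 3.61) and Pfkfb4 (4.50 to 7.58) were low in all libraries.

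The enzymes from aldolase to phosphoglycerate mutase included the most abundant members and shared the order of their Rarres2-/- libraries. Aldoa, which cleaves the sugar bisphosphate into trioses, stood at 2118, 1748 and 1475 FPKM in WT and 914, 2529 and 3338 in Rarres2-/-. Gapdh, which oxidises the triose, was at 1512, 1389 and 1047 in WT and 714, 2011 and 2495 in Rarres2-/-. In both genes replicate 4 lay below every WT library and replicates 5 and 6 above every one. Tpi1, the triose isomerase, measured 299, 330 and 294 FPKM in WT and 153, 430 and 509 in Rarres2-/-. Pgk1, the first ATP-yielding kinase, was at 148, 186 and 171 against 104, 249 and 299. Pgam1, the mutase before enolase, was at 153, 163 and 148 against 124, 210 and 263. The pattern was the same in all 3. Against the WT mean, replicate 4 held 0.499 times the Tpi1 level, 0.542 times the Gapdh level and 0.513 times the Aldoa level, whereas replicate 6 held 1.65, 1.90 and 1.87 times. The group means therefore differed little beside the spread, as for Aldoa, with 1781 ± 323 FPKM in WT and 2260 ± 1234 in Rarres2-/- (SD, n = 3 each). Its log2 difference was 0.17 (SE 0.493) and the exact permutation p 0.6. A stretch like Gapdh was found in transcripts of 180 other genes. Of those with a row, Peli2 reached 13.4 FPKM and the others at most 3.17, against at least 714 for Gapdh.

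Lactate dehydrogenase turns pyruvate into lactate. Ldha, the form that favours lactate, had 860, 1002 and 899 FPKM in WT and 575, 1379 and 1648 in Rarres2-/-, again with replicate 4 below and replicates 5 and 6 above the WT range. Ldhb was at 84.2, 79.0 and 73.8 against 53.5, 86.2 and 117. Ldha held 91.1% to 94.1% of the pair in every library, and the share of Ldhb ran from 5.88% to 8.92%.

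**Figure D2:**
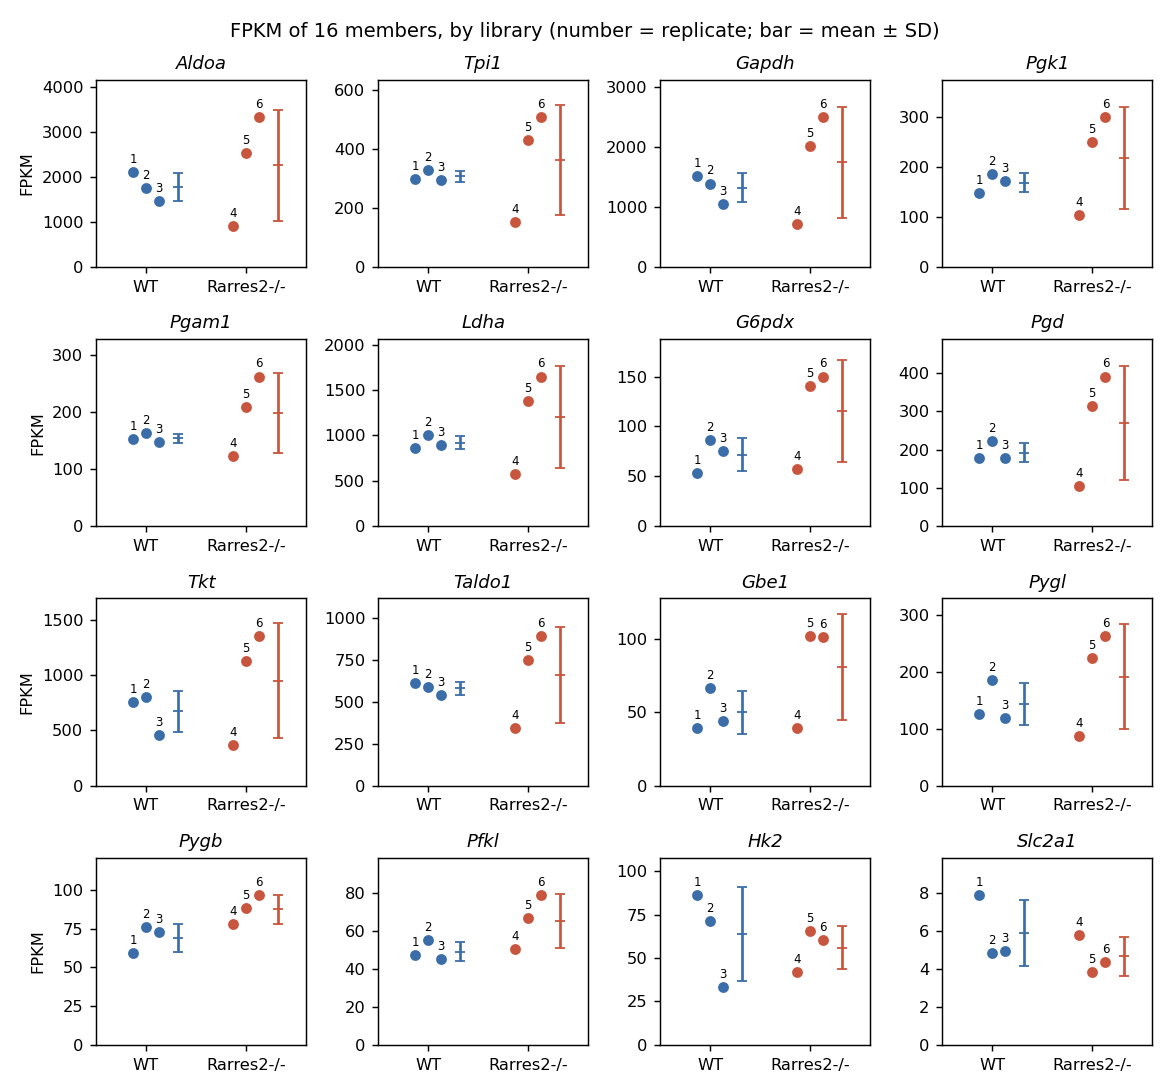
FPKM of 16 members in each library, with the replicate number at each point and the mean ± SD of each genotype beside it (n = 3 each, linear axes from 0). In Aldoa, Tpi1, Gapdh, Pgk1, Pgam1, Ldha, Pgd, Tkt, Taldo1 and Pygl, replicate 4 is the lowest point and replicates 5 and 6 the highest pair.

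Ldha and Pgk1 are well-known targets of the hypoxia-inducible factors, whose sites hold the letters ACGTG, which are also part of the CACGTG E-box. The promoters of this pair are shown because both genes move with the libraries in the same way, as other members also do. The sequences are RefSeq's, on GRCm38.p6, from 250 bases before to 50 after a transcript start, 5′ to 3′ on the gene's strand. Capitals mark ACGTG read on either strand. The Ldha window with matches is chr7:46845554-46845853 on the plus strand, and the Pgk1 window is chrX:106186850-106187149, also on the plus strand.
Ldha: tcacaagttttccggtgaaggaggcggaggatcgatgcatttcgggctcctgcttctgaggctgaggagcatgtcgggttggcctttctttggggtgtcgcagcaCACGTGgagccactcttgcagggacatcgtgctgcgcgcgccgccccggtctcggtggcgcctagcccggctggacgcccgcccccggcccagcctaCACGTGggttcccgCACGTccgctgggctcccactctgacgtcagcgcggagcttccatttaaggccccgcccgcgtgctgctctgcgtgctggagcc
Pgk1: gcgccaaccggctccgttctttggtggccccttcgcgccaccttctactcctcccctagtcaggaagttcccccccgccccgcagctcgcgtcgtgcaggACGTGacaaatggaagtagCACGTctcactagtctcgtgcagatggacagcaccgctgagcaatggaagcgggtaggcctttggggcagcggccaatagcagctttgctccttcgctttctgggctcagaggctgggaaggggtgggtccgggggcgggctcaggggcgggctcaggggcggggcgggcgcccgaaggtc
Counting each strand, so that CACGTG counts on both, the Ldha window shown had 5 matches and the Pgk1 window 2. A second RefSeq window of Ldha, at chr7:46846832-46847131, had 0. Of other members lowest in Rarres2-/- replicate 4 and highest in replicate 6, Aldoa, Gapdh, Pgam1 and Pygl held ACGTG in a window. Gpi1, Pfkfb1, Tpi1, Ldhb, Pgd, Tkt and Taldo1 did not. Members without that order, such as Hk2 and Ppp1r3c, held it too. Over all windows of a gene, 19 of 34 member genes held ACGTG (55.9%), against 29.7% of 8274 tested genes and 21.8% of all 27025 genes with a window. Counted by window, it was in 23 of 52 member windows (44.2%), against 25.4% of those of tested genes and 19.6% of all. A match, or its absence, describes the letters and not a site in use.

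Eno1, which encodes the main enolase, had the largest log2 difference of the members with all 6 libraries, 0.82 (SE 0.465). It was 0.44 without WT replicate 1 and 1.14 without Rarres2-/- replicate 4, and its row has a near-identical copy. Its row read 229, 695 and 365 FPKM in WT and 435, 820 and 888 in Rarres2-/-. Gm5506 (Eno1b), whose transcript is 99.5% identical over 1736 bases, read 370, 120 and 72.5 in WT and 0.722, 1.78 and 212 in Rarres2-/-. The copy was thus high where Eno1 was low in WT replicate 1, and near 0 in Rarres2-/- replicates 4 and 5. With both rows summed, the values were 599, 815 and 437 in WT and 436, 822 and 1100 in Rarres2-/-, the log2 difference was 0.30 (SE 0.471) and the exact permutation p was 0.5. Without Rarres2-/- replicate 4 the summed difference was 0.67. The sources used here do not say how reads were divided between the rows. In the summed values Rarres2-/- replicate 4 was level with WT replicate 3 at the bottom, and replicate 6 was highest, as at the other lower steps.

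**Figure D3:**
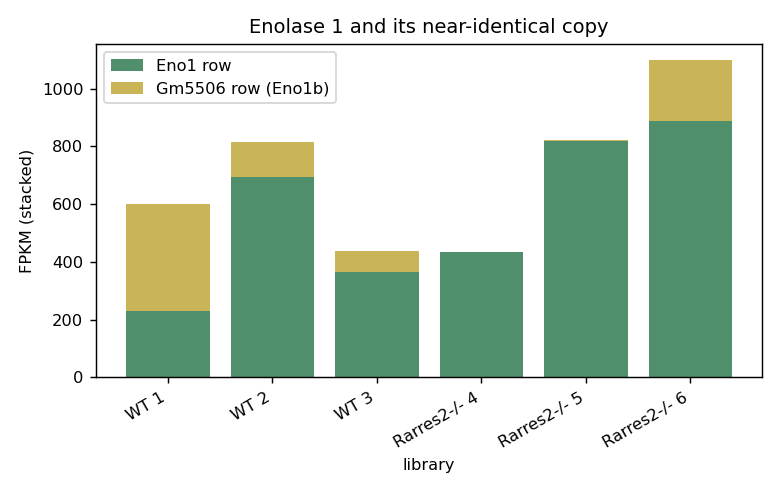
Stacked FPKM of the Eno1 row and the row of its near-identical copy Gm5506 (Eno1b) in each library. The copy adds 370 FPKM in WT replicate 1 and under 2 in Rarres2-/- replicates 4 and 5, and the stack is tallest in replicate 6.

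Among the oxidative enzymes of the pentose phosphate pathway, G6pdx, the NADPH-producing entry enzyme, stood at 53.7, 86.1 and 75.5 FPKM in WT and 57.0, 140 and 150 in Rarres2-/-. Its lowest library was WT replicate 1, and replicates 5 and 6 were 1.96 and 2.09 times the WT mean. The log2 difference was 0.59 (SE 0.399), with an exact permutation p of 0.3, and was 1.03 without Rarres2-/- replicate 4 and 0.40 without WT replicate 1. Pgd, the second NADPH-producing enzyme, was at 178, 222 and 177 against 104, 314 and 391. Pgls, the lactonase between them, did not share the high values, at 200, 133 and 119 in WT and 73.4, 128 and 189 in Rarres2-/-. So within a branch of 3 enzymes, the 2 dehydrogenases stood above every WT library in replicates 5 and 6, and the lactonase did not.

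The non-oxidative branch had a similar division. Tkt, the transketolase, measured 758, 798 and 457 FPKM in WT and 365, 1130 and 1355 in Rarres2-/-. Taldo1, the transaldolase, was at 614, 592 and 540 against 343, 749 and 896. Both were lowest in replicate 4 and highest in replicate 6. Rpia, the ribose phosphate isomerase, was low and mixed, at 17.6, 20.2 and 13.3 in WT and 10.1, 19.6 and 16.6 in Rarres2-/-. Summed over the 6 pentose phosphate members, the level was 1822, 1852 and 1382 FPKM in WT and 952, 2482 and 2999 in Rarres2-/-.

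Glycogen genes were lower in level than both other lists, with summed FPKM over the 7 members of 399, 495 and 368 in WT and 341, 596 and 639 in Rarres2-/-. Gys1, the glycogen synthase of most tissues, was the steadiest, at 48.0, 52.8 and 44.3 in WT and 51.8, 50.5 and 60.8 in Rarres2-/-. It shares 290 bases with Ruvbl2, at 12.1 to 17.9 FPKM. Gyg, which primes the glycogen chain, was at 70.5, 63.5 and 69.3 against 54.6, 89.3 and 88.4. Gbe1, the branching enzyme, was at 39.2, 66.4 and 43.9 against 39.2, 102 and 101, a log2 difference of 0.60 (SE 0.407) with an exact permutation p of 0.4. It was 1.04 without Rarres2-/- replicate 4 and 0.44 without WT replicate 1. Both were above every WT library in replicates 5 and 6 and at the bottom of the range in replicate 4. Ppp1r3c, which targets a phosphatase to glycogen and so activates the synthase, was at 32.2, 47.7 and 15.9 against 16.8, 35.1 and 26.8, with no order between the genotypes.

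Glycogen phosphorylase releases glucose phosphate from glycogen, and the brain-type gene Pygb was the only tested member whose groups did not overlap. The gene lies at chr2:150786796-150831748 of GRCm38.p6. It had 59.0, 76.1 and 72.7 FPKM in WT and 77.9, 88.2 and 96.6 in Rarres2-/-, with the lowest Rarres2-/- library just above the highest WT library. The means were 69.3 ± 9.08 and 87.6 ± 9.38 (SD, n = 3 each), the log2 difference was 0.34 (SE 0.175), and the exact permutation p was 0.1, the smallest that 3 against 3 libraries can give. Of all genes tested, 5.81% were higher without overlap and 4.53% lower, so 1 higher member of 32 (3.12%) and 0 lower ones are near or below the background. Pygl, the liver type and the most abundant of the phosphorylases, was at 125, 186 and 119 against 87.6, 224 and 263, and shared the split of the lower glycolytic genes. Pygb differed from it in replicate 4, where it was at 1.12 times the WT mean and Pygl at 0.612 times.

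The muscle isoforms were highest in the library with the most muscle marker RNA, and their genotype groups overlapped. Pygm stood at 25.0, 2.08 and 3.33 FPKM in WT and 13.3, 7.42 and 2.96 in Rarres2-/-, highest in WT replicate 1 by 1.88 to 12.0 times. Among the 15 muscle markers, 13 were highest in the same library, 6 had a higher and 9 a lower mean log2 level in Rarres2-/-, and Myh2 was listed at 0 in 2 WT libraries. The exceptions, Myh1 and Myh2, reached at most 4.01 and 2.03 FPKM. They were higher in Rarres2-/- without overlap, as were 5.81% of all genes tested. The median log2 difference of the 13 tested markers was -0.13, or 0.86 without WT replicate 1. The summed markers were 2101, 315 and 415 in WT and 642, 771 and 482 in Rarres2-/-. Pgam2 and Eno3, the muscle mutase and enolase, were also highest in WT replicate 1, at 32.1 and 50.3 FPKM, and next highest in Rarres2-/- replicate 4, at 13.2 and 23.3. The log2 differences of Pygm, Pgam2 and Eno3 were 0.15, 0.06 and 0.17 with all 6 libraries. Without WT replicate 1, where limma called 0 genes, those of Pygm, Pgam2 and Eno3 were 1.10, 1.05 and 0.99. Pfkm differed from these in degree. It measured 26.4, 14.7 and 14.9 FPKM in WT and 16.9, 17.5 and 18.0 in Rarres2-/-, so that WT replicate 1 was above the others by 1.47 to 1.79 times only, and Pfkm stayed between 14.7 and 18.0 FPKM in libraries whose Pygm ran from 2.08 to 13.3. The shares of the summed isoforms show the same: Pygm took 12.0% of glycogen phosphorylase in WT replicate 1, 7.42% in Rarres2-/- replicate 4 and 0.786% to 2.32% in the others, while Pfkm took 30.7% of phosphofructokinase in WT replicate 1 and 15.9% to 20.5% in the others. The part of muscle RNA in these values was not tested.

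**Figure D4:**
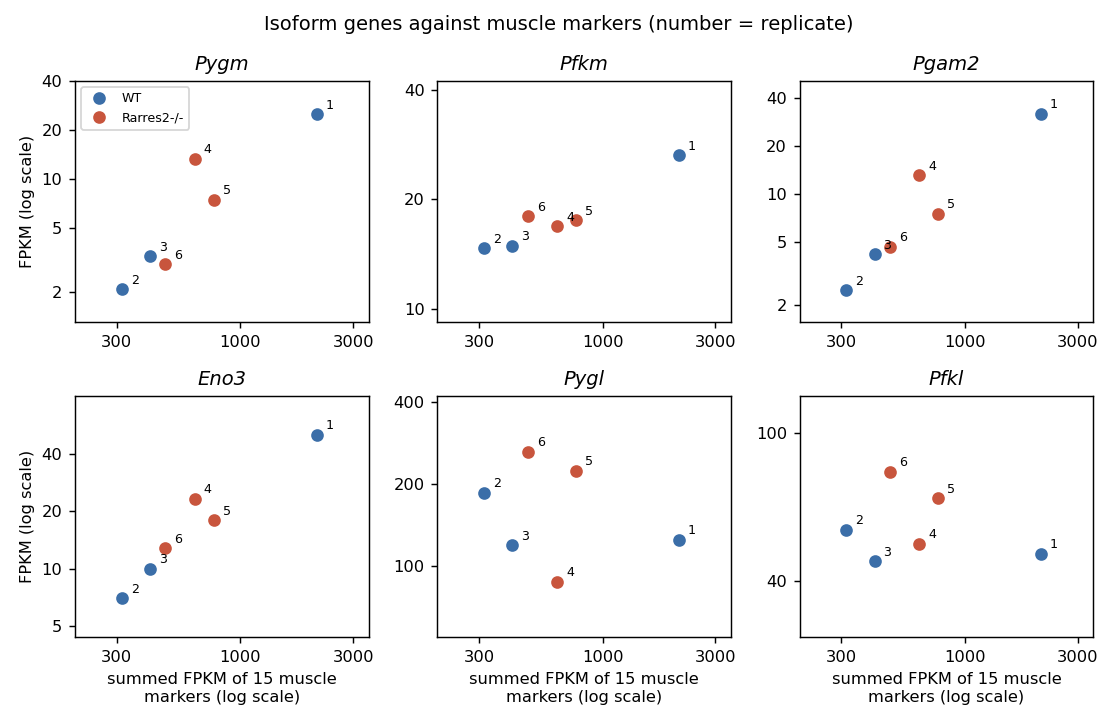
FPKM of Pygm, Pfkm, Pgam2, Eno3, Pygl and Pfkl (vertical, log scale) against the summed FPKM of 15 skeletal muscle markers (horizontal, log scale) in the 6 libraries, numbered by replicate. Pygm, Pgam2 and Eno3 are highest in WT replicate 1, which has the largest marker sum. They are higher in Rarres2-/- replicate 4 than in replicate 5, whose marker sum is larger than that of replicate 4. Pfkm is also highest in WT replicate 1, and Pygl and Pfkl are not.

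The promoter of Pygm is shown for CAGCTG, a form of the E-box that muscle regulatory factors such as MyoD bind, marked in capitals together with ACGTG. It lies at chr19:6384158-6384457 of GRCm38.p6 on the plus strand, in a RefSeq window of the same extent.
Pygm: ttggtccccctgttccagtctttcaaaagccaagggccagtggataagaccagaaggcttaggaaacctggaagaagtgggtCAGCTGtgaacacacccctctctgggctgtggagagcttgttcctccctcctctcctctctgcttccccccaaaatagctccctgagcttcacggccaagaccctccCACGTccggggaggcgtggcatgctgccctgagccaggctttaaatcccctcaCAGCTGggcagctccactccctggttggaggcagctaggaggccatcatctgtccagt
The window held CAGCTG, which reads alike on both strands, at 2 places and ACGTG at 1. Over all members, 9 of 34 genes had CAGCTG in a window (26.5%), against 18.1% of tested genes and 18.3% of all genes with a window. Counted by window the share was 17.3% for members, 15.4% for tested genes and 16.3% for all, near the background. No window of Pfkm held CAGCTG.

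Leaving out Rarres2-/- replicate 4 moved the medians of all 3 lists further than leaving out any WT library. With 5 libraries, limma still called 0 genes (0.0%) and 0 members at an adjusted p under 0.05. At an unadjusted limma p under 0.05, 16 of 32 members were higher in Rarres2-/- (50.0%), against 8.2% of all genes tested and 25.4% of the abundant ones, and 0 members were lower (3.0% of all genes). Both remaining Rarres2-/- libraries were above every WT library in 18 of 32 members (56.2%, against 21.5% of all genes and 42.2% of abundant genes). Among the 14 abundant members that was the case for 12, or 85.7%. These 18 were 10 of 19 glycolysis members, 4 of 6 pentose phosphate members (G6pdx, Pgd, Tkt and Taldo1) and 4 of 7 glycogen members (Gyg, Gbe1, Pygl and Pygb). Both libraries were below every WT library in 2 members, Hk1 and Slc2a1 (6.25%, against 12.9%). The median log2 differences became 0.34, 0.68 and 0.39 for the 3 lists, while the median of abundant genes became 0.22. Without replicate 6 in place of replicate 4, they were -0.06, -0.14 and 0.08, and 14 members changed sign. Replicate 4 was the lowest library in 17 of the 32 members, so leaving it out raises their differences. With any 1 library other than replicate 4 left out, 0 or 1 of the 32 members had an unadjusted limma p under 0.05. Of all 11086 genes tested, 243 to 972 did in those fits.

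**Figure D5:**
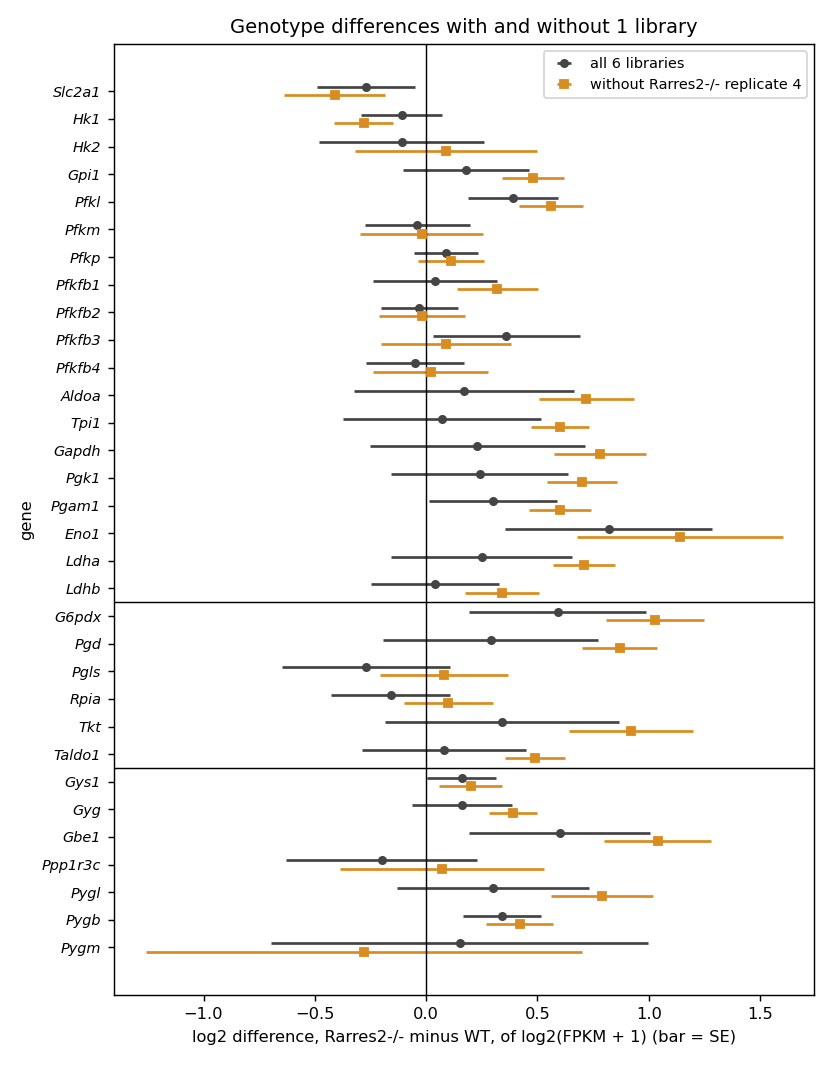
Log2 difference, Rarres2-/- minus WT, of each tested member with its SE from limma, with all 6 libraries (circles) and without Rarres2-/- replicate 4 (squares). Leaving that library out moves Aldoa from 0.17 to 0.72, Tkt from 0.34 to 0.92 and G6pdx from 0.59 to 1.03, and leaves Pygb at 0.42 and Gys1 at 0.20.

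Weighting the libraries by their residual spread in limma was the one setting in which members passed the threshold. It gave WT replicate 1 a weight of 0.192 and Rarres2-/- replicate 4 one of 0.179, against 6.19 for Rarres2-/- replicate 5, with an estimation that stopped before converging, and called 770 of 11086 genes higher (6.95%) and 754 lower (6.8%). The 4 members called, all higher in Rarres2-/-, were Pfkl (log2 difference 0.42, adjusted limma p 0.0461), G6pdx (0.78, 0.0258), Gyg (0.41, 0.0372) and Gbe1 (0.85, 0.0359). With WT replicate 1 and Rarres2-/- replicate 4 both left out, limma called 68 genes, 14 higher (0.126%) and 54 lower (0.487%), and 0 members. The log2 differences of Pfkl, G6pdx, Gyg and Gbe1 were then 0.53, 0.84, 0.42 and 0.89, as large as with the weights, at adjusted limma p of 0.11, 0.0532, 0.0938 and 0.0825. At an unadjusted limma p under 0.05 there were 17 of 32 members and 2746 of 11086 genes.

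Other genes of the same pathways, from lists of neighbouring steps, had no call either with 6 equal libraries. Of 17 other glycolysis and hexose genes 11 had a positive and 6 a negative log2 difference, of 7 other pentose phosphate genes 5 and 2, and of 20 other glycogen genes 15 and 5, beside 48.6% positive over all genes tested. None of them (0) had an unadjusted limma p under 0.05, against 3.93% of all genes. With array weights, Ugp2, Gys2, Phkb and Ppp1r3e were called higher, 4 of the 20 other glycogen genes. Dera was called higher among the 7 other pentose phosphate genes, and 0 of the 17 other glycolysis and hexose genes were. Those called lower were Pgm1 of the 20 glycogen genes, Hk3 of the 17 glycolysis and hexose genes, and 0 of the 7. With the same weights, 6.95% of all genes tested were called higher and 6.8% lower. Whether the lists differ from these shares was not tested. H6pd, the NADPH-producing dehydrogenase of the endoplasmic reticulum, had 56.6, 53.8 and 52.6 FPKM in WT and 97.0, 60.7 and 58.6 in Rarres2-/-, without overlap. Gsk3b, a kinase that inactivates glycogen synthase and that is named here because of its values, was the only other gene of these lists without overlap, at 9.92 to 11.4 FPKM in WT and 11.5 to 12.1 in Rarres2-/-, and their number does not stand out beside the 5.81% of all genes higher without overlap. Unlike the cytosolic G6pdx, H6pd was highest in Rarres2-/- replicate 4. Prps1, which makes the ribose donor for nucleotides, was also highest there, at 78.2 FPKM against 21.9 to 44.3 in the other libraries. Ppp1r3e, another glycogen-targeting subunit, was at 3.61, 5.26 and 4.19 in WT and 4.41, 7.43 and 8.00 in Rarres2-/-. Phkg1, the catalytic subunit of muscle phosphorylase kinase, was highest in Rarres2-/- replicate 4 at 9.48 FPKM and in WT replicate 1 at 7.32, against 3.02 to 4.51 in the others. Phkb, a subunit of the kinase that activates phosphorylase, was at 10.7, 11.4 and 12.4 against 12.1, 15.8 and 13.2. On the lower side, the smallest limma p values of each list belonged to Tigar, Bpgm, Rbks, Prps2, Pgm1 and Nhlrc1. Their log2 differences were -0.21, -0.16, -0.19, -0.05, -0.27 and -0.15. The higher side also held Fbp2 (0.26) and Minpp1 (0.17). Glycogen synthase had a second transcript from the liver-type gene Gys2, which held 16.1%, 20.2% and 24.2% of the pair in WT and 10.7%, 35.0% and 32.2% in Rarres2-/-, so its share divided the Rarres2-/- libraries in the same way as the lower glycolytic genes, with an exact permutation p of 0.5. Its own level was 9.21, 13.3 and 14.2 FPKM in WT and 6.19, 27.2 and 28.9 in Rarres2-/-. Gys2 had a log2 difference of 0.48 (SE 0.545) with 6 equal libraries, and without WT replicate 1 and Rarres2-/- replicate 4 it passed the threshold, at 0.98 and an adjusted limma p of 0.0414. Gys2 was the only 1 of the 20 other glycogen genes called there (5.0%), against 0.126% of all genes called higher. It is named here because of its values.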

How the data were processed

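RNA-seq values of 6 libraries were deposited by the authors as FPKM, 1 table per library, per the file headers of 5 tables. In the table of WT replicate 3 the header gives a sample name and no unit. Its values were read as FPKM because their scale matched (median of tested genes 9.23, others 9.05 to 9.37). Bowtie and mm10 are named in the submitters' processing notes. The sources used here give no versions, and they do not name the program behind the FPKM, the annotation, the strand or the treatment of shared reads. FPKM holds no counts, so depth is unknown. The 737 rows without a symbol (0.793% to 4.91% of summed FPKM) were left out.

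The 11086 named genes that averaged 1 FPKM or more entered a limma fit (version 3.58.1, R 4.3.3) with trended empirical Bayes and two-sided tests. Values were log2(FPKM + 1), on which changes of low genes come out too small. The contrast was Rarres2-/- minus WT with no covariate, and the threshold was a Benjamini-Hochberg adjusted p of 0.05 over all tested genes. Single values were compared by two-sided exact permutation tests of FPKM (scipy 1.17.1), whose smallest p is 0.1. Similar genes were found with blastn 2.17.0 in GENCODE transcripts, at 90% identity or more over at least 200 bases. Promoters and gene positions are RefSeq's on GRCm38.p6, the assembly of mm10. The script was tested on simulated data.

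The text names all members. Of neighbouring genes it takes from those with the smallest p in each direction in each list, with Pgam2, Eno3, Phkg1 and Slc2a4. Gys2, Ugp2, Dera, Hk3 and Gsk3b fall outside this rule and are named because of their values. Tigar and Adgre1 were matched by older symbols. The members, lists and rules were chosen with earlier results of these data known. Alternatives were a pseudocount of 0.1, 5 FPKM in 3 libraries as the filter, no filter, quantile normalization, scaling without the 20 most abundant genes, array weights, no trend, and libraries left out. Summing Eno1 with Gm5506, and the share of members above every WT library without Rarres2-/- replicate 4, were added after seeing the data.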

Additional observations from a re-analysis of the deposited data

How the results depend on the processing

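The count of called genes was 0 with a pseudocount of 0.1, no filter, quantile normalization or no trend. It was 1 with a filter of 5 FPKM in 3 libraries, 1 with scaling without the 20 most abundant genes, 1524 with array weights and 68 without both WT replicate 1 and Rarres2-/- replicate 4, and 0 to 1 with each library left out in turn. Called members were 4 with array weights and 0 in every other setting run. The cause of these changes was not tested.

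Leaving out each library in turn moved the median log2 difference from -0.06 to 0.34 for glycolysis, from -0.14 to 0.68 for the pentose phosphate pathway and from 0.08 to 0.39 for glycogen. The lowest values were without Rarres2-/- replicate 6 and the highest without replicate 4. The share of members above every WT library in every Rarres2-/- library was 56.2% without Rarres2-/- replicate 4.

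Signs of single members were less stable: 10 of 32 kept theirs with each library left out, and 22 did not. The log2 differences of those 22 ran from -0.28 to 0.03 for Hk1, -0.51 to 0.16 for Hk2, -0.0036 to 0.48 for Gpi1, -0.18 to 0.22 for Pfkm, -0.01 to 0.14 for Pfkp, -0.20 to 0.32 for Pfkfb1, -0.15 to 0.07 for Pfkfb2 and -0.25 to 0.07 for Pfkfb4. They ran from -0.21 to 0.72 for Aldoa, -0.26 to 0.60 for Tpi1, -0.12 to 0.78 for Gapdh, -0.06 to 0.70 for Pgk1, -0.05 to 0.71 for Ldha and -0.21 to 0.34 for Ldhb. The others ran from -0.08 to 0.87 for Pgd, -0.59 to 0.08 for Pgls, -0.35 to 0.10 for Rpia, -0.02 to 0.92 for Tkt, -0.20 to 0.49 for Taldo1, -0.00096 to 0.79 for Pygl, -0.44 to 1.10 for Pygm and -0.62 to 0.14 for Ppp1r3c.

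Quantile normalization turned the sign of Pfkfb1 (-0.01), Pfkfb2 (0.01) and Ldhb (-0.01). Array weights turned Hk2 (0.30), Pfkm (0.20), Pfkp (-0.03), Pfkfb2 (0.19), Pfkfb3 (-0.17), Pgls (0.03), Rpia (0.16) and Ppp1r3c (0.18). Leaving out both libraries turned Hk2 (0.35), Pfkm (0.25), Pfkfb2 (0.04), Pfkfb4 (0.14), Pgls (0.31), Rpia (0.13) and Ppp1r3c (0.14).

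No paired analysis was possible because the groups share no replicate number. Where a leave-one-out fit left 2 libraries in a group, the spread was pooled with the other group.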
